A study of Sus scrofa with 11 samples.

Results

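The genes described here are 35 genes of sterol and fatty acid synthesis, chosen by name as a pathway list, with earlier results of these data known. Of these, 34 were matched by symbol to 1 row each among the 35670 genes of the count table, and MBTPS2, the second of the proteases that release sterol-sensing transcription factors, was not analysed here. The 34 comprise 19 enzymes of the sterol pathway, 9 enzymes of fatty acid synthesis and modification, and 6 genes of sterol sensing and sterol transport. All were measured by poly-A selected RNA sequencing of carotid artery from pigs (Sus scrofa) given a Western diet, high in fat and calories, for 12 weeks. Once a week, under anaesthesia, the treated animals received SWNT-SHP1i, single-walled carbon nanotubes carrying a chemical inhibitor of the phosphatase SHP-1, by intravenous infusion at 400 nM, and the control animals received the nanotubes alone (SWNT) at the same concentration. The purpose was to learn if blocking SHP-1 in macrophages clears apoptotic cells and calms inflamed atherosclerotic vessels without bringing on anaemia. Of 11 animals listed, 6 SWNT-SHP1i and 5 SWNT, counts were analysed for 5 in each group. SWNT-SHP1i replicate 4 is labelled as having died before harvest. Neither strain, sex nor age is given, both groups share the diet, no group on normal diet or without nanotubes is included, and each library is carotid artery with 1 animal's number in its title. In such bulk tissue, fewer cells of a type and less RNA per cell cannot be told apart.

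Cholesterol is built from acetyl-CoA by way of mevalonate, isoprenoid units, squalene and lanosterol, and fatty acids are built from the same acetyl-CoA as malonyl-CoA units are joined and the chain is then lengthened and desaturated. When membranes of the endoplasmic reticulum hold little sterol, the escort protein SCAP carries the transcription factor SREBP-2, the product of SREBF2, to the Golgi, where the proteases encoded by MBTPS1 and MBTPS2 release it. It then switches on most genes of the sterol pathway. INSIG1 and INSIG2 hold SCAP back when sterol is plentiful. In the artery wall, cells that have taken up lipoprotein cholesterol or engulfed dying cells are loaded with sterol, and fat cells around the vessel are a strong source of fatty acid synthesis.

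Total counts lay between 27593564 and 39413481 in the SWNT-SHP1i libraries and between 32931527 and 47718854 in the SWNT libraries. A separate measure of library content, the number of genes with at least 1 count, set 3 libraries apart. It was 14497 in SWNT-SHP1i replicate 3, 17691 in SWNT-SHP1i replicate 6 and 17259 in SWNT replicate 3, against 18889 to 19942 in the other 7 libraries, although SWNT replicate 3 was the most deeply sequenced of all 10. SWNT-SHP1i replicate 3 and SWNT replicate 3 were also the only libraries from animals whose number does not begin with B9. What the animal numbers mean is not stated. Summed over 10 markers, contractile smooth muscle stood at 19809 to 48314 CPM (read counts scaled to a common library size) in SWNT-SHP1i and at 38923 to 58076 CPM in SWNT, and every one of the 10 was detected. All 10 had negative fold changes, 5 of them with an unadjusted edgeR p under 0.05, where 1.15% of all genes tested were lower at that p.

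No gene of the 34 passed the test for a difference between SWNT-SHP1i and SWNT carotid artery, and the fold changes of sterol and of fatty acid enzymes lay evenly around 0. Over all 15930 genes tested, edgeR's quasi-likelihood test called 0 genes at an adjusted p under 0.05, which is 0% of the genes, and 0 of the 34 members, whose adjusted p was 0.997 or more. Without adjustment 0 members had a p under 0.05, where 4.64% of all genes tested did, 3.49% higher and 1.15% lower in SWNT-SHP1i. DESeq2 and limma-voom also called 0 members after adjustment, and the members with an unadjusted p under 0.05 numbered 1 with DESeq2 (ME1), where 6.19% of all genes tested had one, and 0 with limma-voom, where 8.69% did. In 0 members did all SWNT-SHP1i libraries lie above all SWNT libraries (0.0816% of all genes tested) or all below them (0.276%). Log2 fold changes (SWNT-SHP1i over SWNT) ran from -0.60 for TM7SF2 to 0.72 for MVD. Of the members 17 were positive and 17 negative, and 50.8% of all genes tested were positive. The median was -0.03 over the sterol enzymes and -0.07 over the fatty acid enzymes, against 0.01 over all genes tested. Neither median kept its sign throughout the alternatives, and with only the 7 libraries with most genes detected they were 0.05 and 0.07, with 0 genes called. At an unadjusted p under 0.05 there were 0 members among those 7 libraries (3.32% of all genes tested) and 0 without SWNT-SHP1i replicates 3 and 6 (3.22%).

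**Figure D1:**
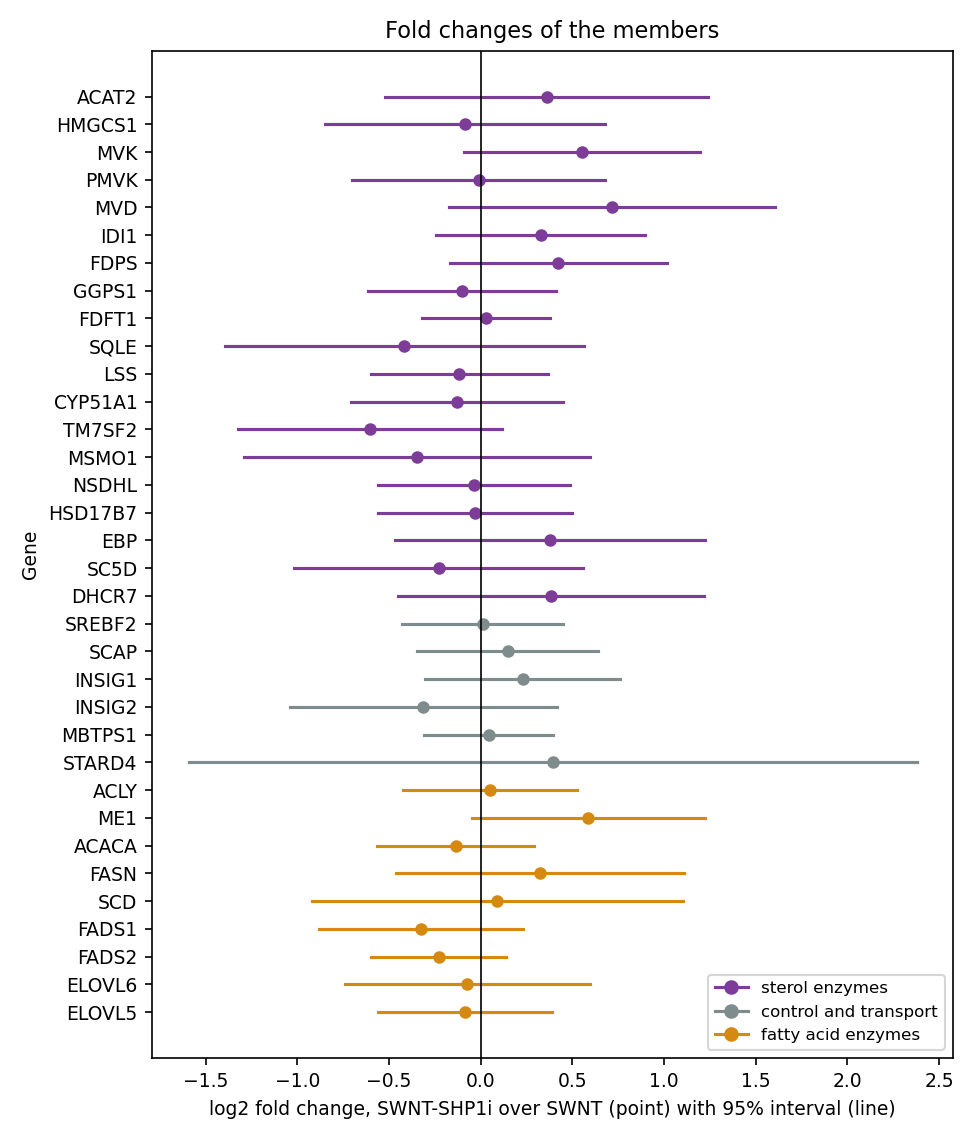
Log2 fold change of each of the 34 genes, SWNT-SHP1i over SWNT (points), with its 95% interval (lines), in the order of the pathway from top to bottom and coloured by sterol enzymes, control and transport genes and fatty acid enzymes. All 34 intervals include 0, and the points lie between -0.60 and 0.72.

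The width of the intervals bounds what these 10 animals can show. In all 34 members the 95% interval included 0, and its median half-width was 0.61 on the log2 scale. The interval lay wholly within a log2 change of 1 in either direction for 19 members, 9 of the sterol enzymes, 6 of the fatty acid enzymes and 4 of the control and transport genes. For the other 15 the interval reached beyond a change of that size in at least 1 direction. In 27 of 34 members the spread between animals was larger among SWNT-SHP1i than among SWNT libraries, and this was so for 82.0% of all genes tested. The median SD over the sterol enzymes was 0.60 log2 CPM in SWNT-SHP1i and 0.26 in SWNT, and over the fatty acid enzymes 0.46 and 0.24.

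The first 5 sterol genes make and activate mevalonate. HMGCS1, the synthase that condenses acetyl-CoA with acetoacetyl-CoA (chromosome 16, 27936218 to 27957193, minus strand, Sscrofa11.1), had 42.6, 61.1, 33.7, 63.7 and 15.2 CPM in SWNT-SHP1i replicates 1, 2, 3, 5 and 6, against 45.3, 50.9, 24.9, 53.4 and 55.5 CPM in SWNT replicates 1 to 5. The groups overlapped, and the lowest values of both came from the 3 libraries with few detected genes. Its log2 fold change was -0.09 ± 0.35 (SE), and it was 0.13 without SWNT-SHP1i replicate 6. MVK, mevalonate kinase (chromosome 14, 41281673 to 41357368, minus strand), had the smallest unadjusted p of these 5. It had 4.73, 7.19, 11.3, 5.64 and 8.402 CPM in SWNT-SHP1i, against 4.61, 5.66, 4.53, 4.24 and 6.35 CPM in SWNT. The 3 highest values were SWNT-SHP1i replicates 3, 6 and 2, while the other 2 SWNT-SHP1i libraries lay within the SWNT range. The log2 fold change was 0.55 ± 0.30, and 0.19 over the 7 libraries with most genes detected. The unadjusted edgeR p was 0.0871.

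MVD, the decarboxylase that makes the first isoprenoid unit, had 14.6, 17.7, 22.8, 13.1 and 61.8 CPM in SWNT-SHP1i and 14.1, 16.8, 21.8, 10.9 and 15.5 CPM in SWNT. SWNT-SHP1i replicate 6 alone stood far above the rest, and the log2 fold change of 0.72 ± 0.41 became 0.11 without it. For ACAT2, the thiolase that supplies acetoacetyl-CoA in the cytosol, 4 of 5 SWNT-SHP1i libraries exceeded all SWNT libraries and replicate 3 was below them all. Its values were 5.29, 6.53, 1.74, 6.09 and 5.03 CPM in SWNT-SHP1i, against 4.20, 3.72, 1.83, 4.69 and 4.79 CPM in SWNT, and its log2 fold change was 0.36 ± 0.41, or 0.57 without SWNT-SHP1i replicate 3, 0.18 without SWNT replicate 3 and 0.48 over the 7 libraries with most genes detected. It shares 1217 exon bases with TCP1 on the other strand, and as the strand setting of the counting is not given, reads of the pair cannot be told apart. PMVK, phosphomevalonate kinase, averaged 13.0 ± 5.33 CPM in SWNT-SHP1i and 13.1 ± 2.99 CPM in SWNT (SD, n = 5 each), with a log2 fold change of -0.01 ± 0.32 that was -0.38 over the 7 libraries.

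Of the 3 isoprenoid genes, FDPS, the farnesyl diphosphate synthase (chromosome 4, 94500141 to 94518408, minus strand), had the smallest unadjusted p (0.145 by edgeR). It had 27.6, 40.9, 27.4, 35.01 and 75.3 CPM in SWNT-SHP1i, against 26.8, 33.3, 33.3, 30.7 and 29.6 CPM in SWNT. SWNT-SHP1i replicates 6, 2 and 5 were above every SWNT library and the other 2 were within the SWNT range. The log2 fold change of 0.42 ± 0.27 became 0.09 without SWNT-SHP1i replicate 6. IDI1, the isomerase that interconverts the isoprenoid units, averaged 16.5 ± 5.68 CPM in SWNT-SHP1i and 13.2 ± 1.69 CPM in SWNT (SD, n = 5 each). In SWNT-SHP1i it was split, with replicates 2, 5 and 6 above every SWNT library and replicates 1 and 3 below every one. GGPS1, which makes geranylgeranyl diphosphate, averaged 13.5 ± 3.93 CPM in SWNT-SHP1i and 14.6 ± 1.10 CPM in SWNT.

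From squalene to cholesterol, 3 of 11 enzymes had positive and 8 had negative fold changes, with a median of -0.12. SQLE, the squalene epoxidase that brings in the first oxygen (chromosome 4, 14669791 to 14700126, minus strand), had 7.90, 19.2, 8.69, 23.4 and 2.83 CPM in SWNT-SHP1i, against 11.5, 19.7, 17.1, 15.6 and 19.0 CPM in SWNT. Its range over the 10 libraries, 8.27-fold, was the widest of the sterol enzymes. Among SWNT-SHP1i libraries 3 were below every SWNT library and 1 was above every one, and the log2 fold change was -0.42 ± 0.45, or 0.06 over the 7 libraries with most genes detected. TM7SF2, a sterol reductase (chromosome 2, 7075068 to 7081432, minus strand), had the smallest unadjusted p of the 11 (0.0935 by edgeR). It had 33.2, 22.4, 34.5, 34.9 and 27.5 CPM in SWNT-SHP1i, against 33.4, 42.6, 95.2, 24.0 and 36.5 CPM in SWNT. The SWNT side was raised by replicate 3, and the log2 fold change of -0.60 ± 0.33 became -0.16 without it. ZNHIT2 lies on the other strand over 1285 exon bases of TM7SF2 and has a mean count of 0, so counts in the shared stretch are uncertain.

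FDFT1, the squalene synthase, varied least of all members. It had 48.0, 61.3, 48.5, 57.4 and 51.4 CPM in SWNT-SHP1i, against 46.4, 60.01, 46.2, 51.0 and 57.9 CPM in SWNT, a 1.33-fold range over all 10 libraries, with a log2 fold change of 0.03 ± 0.16. It shares 3513 exon bases with CTSB, the lysosomal protease cathepsin B, on the other strand, and its counts are therefore uncertain. LSS, the cyclase that forms lanosterol, lies on an unplaced scaffold and averaged 50.1 ± 13.7 CPM in SWNT-SHP1i and 54.4 ± 8.95 CPM in SWNT (SD, n = 5 each). NSDHL and HSD17B7, which with MSMO1 remove the methyl groups at carbon 4, had fold changes of -0.04 ± 0.24 and -0.03 ± 0.24 on the log2 scale, and of -0.20 and -0.03 over the 7 libraries.

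Enzymes of the last steps of the pathway went opposite ways in SWNT-SHP1i replicate 6, and the genes named here were picked after their values were seen. In that library 29.4% of all genes tested had their highest and 30.5% their lowest value, so the pattern is not particular to these enzymes. DHCR7, the reductase of the final step, had 10.1, 13.3, 7.33, 7.34 and 30.8 CPM in SWNT-SHP1i and 9.67, 13.7, 9.29, 9.66 and 10.4 CPM in SWNT. EBP, the sterol isomerase, had 8.59, 8.11, 7.12, 5.31 and 24.5 CPM in SWNT-SHP1i and 8.20, 6.69, 10.5, 8.63 and 7.18 CPM in SWNT. In both genes replicate 6 was the highest library by a wide margin, and another SWNT-SHP1i library was the lowest. SC5D, the desaturase between those steps, went the other way in the same library, with 12.8, 14.3, 7.55, 16.7 and 4.49 CPM in SWNT-SHP1i and 11.6, 15.7, 7.01, 13.8 and 17.3 CPM in SWNT. Without replicate 6 the log2 fold changes were -0.15 for DHCR7, -0.18 for EBP and -0.03 for SC5D, where with it they were 0.38 ± 0.38, 0.38 ± 0.39 and -0.23 ± 0.36.

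**Figure D2:**
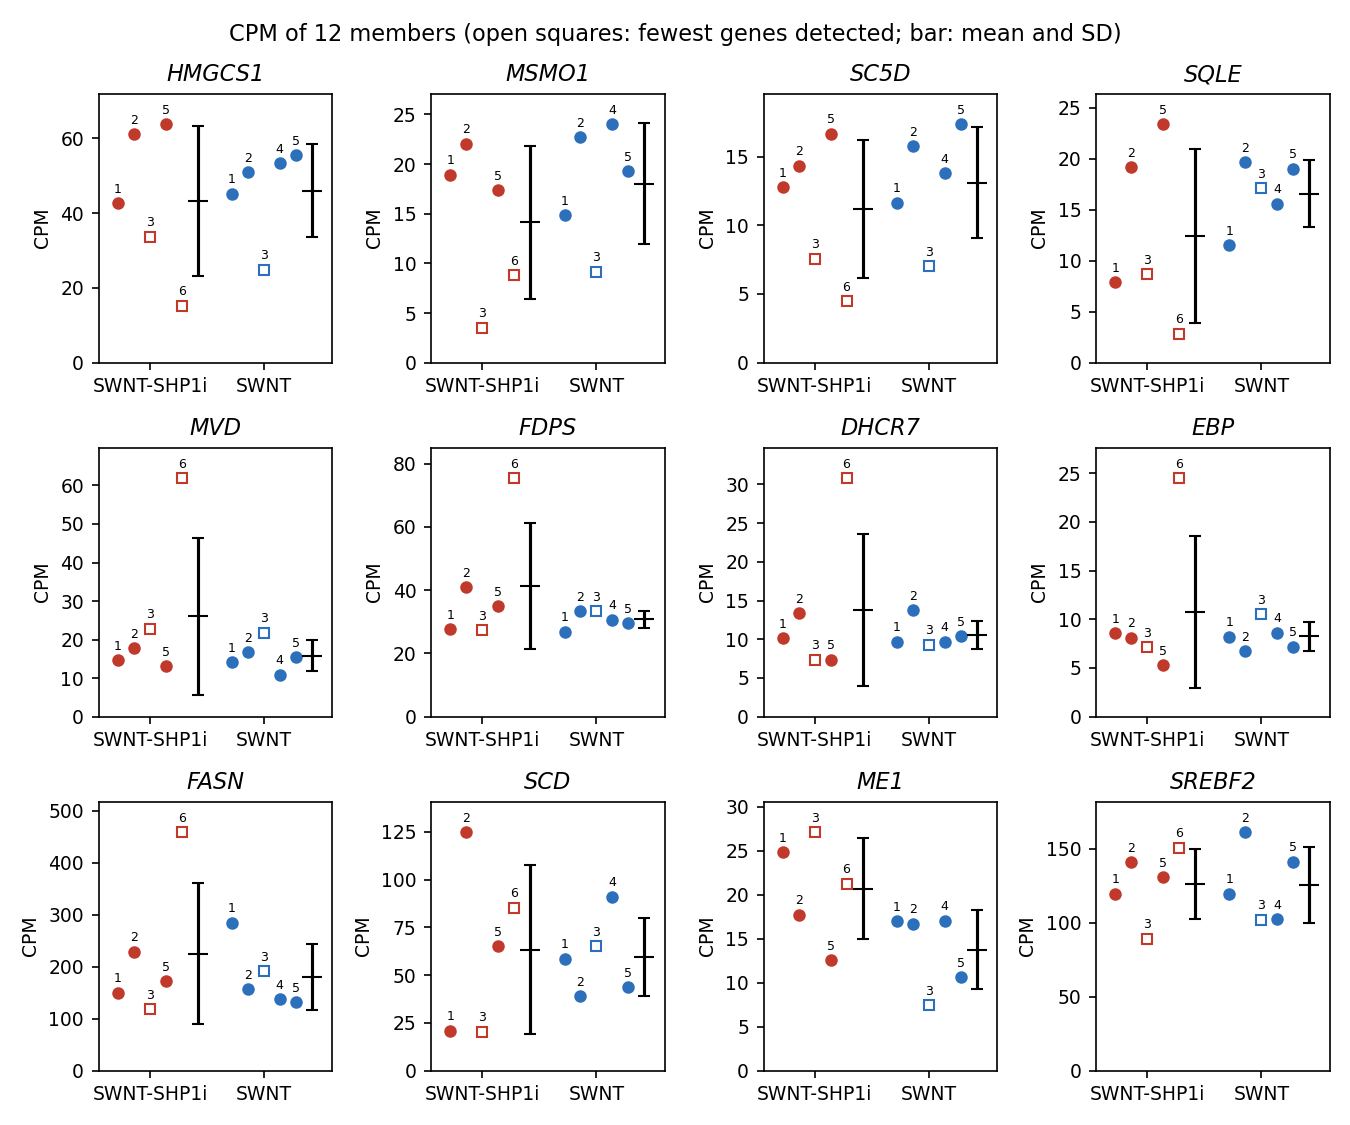
CPM (vertical axes, starting at 0) of 12 genes in SWNT-SHP1i (red, left) and SWNT (blue, right) libraries, with replicate numbers beside the points, group mean ± SD as black bars (n = 5 each) and open squares for the 3 libraries with the fewest genes detected. HMGCS1, MSMO1 and SC5D are lowest in those 3 libraries, whereas MVD, FDPS, DHCR7, EBP and FASN peak in SWNT-SHP1i replicate 6.

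Among the 5 genes that sense sterol and release SREBP-2, 4 had positive fold changes, with a median of 0.04, and none passed the test. SREBF2 (chromosome 5, 6719490 to 6784671, minus strand) had 119.5, 141, 89.0, 131 and 150.4 CPM in SWNT-SHP1i and 119, 161, 102, 102 and 141 CPM in SWNT. The ranges overlapped, and the log2 fold change was 0.01 ± 0.20 with a 95% interval from -0.43 to 0.45. SCAP averaged 65.5 ± 20.1 CPM in SWNT-SHP1i and 59.2 ± 12.3 CPM in SWNT, and MBTPS1 195 ± 18.8 and 189 ± 21.7 CPM (SD, n = 5 each). INSIG1, itself a target of SREBP-2, had 18.2, 42.4, 29.2, 32.8 and 29.7 CPM in SWNT-SHP1i, against 22.5, 20.6, 35.8, 22.7 and 28.4 CPM in SWNT, with a log2 fold change of 0.23 ± 0.24 that was 0.43 over the 7 libraries. INSIG2 (chromosome 15, 23676683 to 23699582, plus strand), which had the smallest unadjusted p of the sensing genes (0.367 by edgeR), had 17.2, 15.2, 11.7, 19.5 and 5.49 CPM in SWNT-SHP1i and 18.1, 22.2, 9.87, 20.8 and 14.8 CPM in SWNT. Replicate 6 of SWNT-SHP1i was the lowest library for INSIG2, and the log2 fold change of -0.31 ± 0.33 became -0.11 without it.

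STARD4, a carrier that moves cholesterol between membranes (chromosome 2, 116236255 to 116257041, minus strand), was the member with the fewest counts. It had 1.42, 1.96, 1.63, 3.87 and 0.582 CPM in SWNT-SHP1i and 1.59, 1.12, 0, 2.41 and 2.10 CPM in SWNT. SWNT replicate 3 held 0 counts of this gene, which allows up to 0.067 CPM (3 counts, counting error only), while the other SWNT libraries held 38 to 96 counts. The fitted log2 fold change of 0.39 ± 0.91 had the widest interval of all members, and it was -0.04 without SWNT-SHP1i replicate 5.

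Fatty acid synthesis begins with the supply of acetyl-CoA and NADPH. ME1, the cytosolic malic enzyme that yields NADPH (chromosome 1, 82799684 to 82991085, plus strand), had the smallest unadjusted p of all members, 0.0664 by edgeR. It had 24.8, 17.7, 27.1, 12.6 and 21.2 CPM in SWNT-SHP1i, against 16.98, 16.7, 7.46, 17.04 and 10.6 CPM in SWNT. ME1 in 4 of 5 SWNT-SHP1i libraries exceeded all SWNT values, and the other lay within the SWNT range. The log2 fold change was 0.59 ± 0.29 with a 95% interval from -0.05 to 1.22, and it was 0.28 over the 7 libraries with most genes detected. ACLY, which splits citrate into acetyl-CoA, averaged 60.7 ± 17.9 CPM in SWNT-SHP1i and 58.6 ± 5.01 CPM in SWNT (SD, n = 5 each), with a log2 fold change of 0.05 ± 0.22 that was 0.21 over the 7 libraries.

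FASN, the fatty acid synthase (chromosome 12, 920509 to 937561, plus strand), had 149.9, 229, 118, 172 and 458 CPM in SWNT-SHP1i and 285, 157, 191, 137 and 132 CPM in SWNT. Apart from SWNT-SHP1i replicate 6, the highest library was SWNT replicate 1. The log2 fold change of 0.32 ± 0.36 turned to -0.11 without SWNT-SHP1i replicate 6. With all libraries its unadjusted edgeR p was 0.391. ACACA, the carboxylase that makes malonyl-CoA, averaged 70.2 ± 14.7 CPM in SWNT-SHP1i and 77.2 ± 12.2 CPM in SWNT (SD, n = 5 each). SCD, the desaturase that forms oleate (chromosome 14, 111461569 to 111478020, plus strand), had 21.0, 125, 20.4, 65.2 and 85.3 CPM in SWNT-SHP1i and 58.6, 38.9, 65.0, 91.0 and 43.6 CPM in SWNT. SWNT-SHP1i held both the highest and the 2 lowest of the 10 SCD values, a 6.10-fold range that was the widest of the fatty acid enzymes, and the log2 fold change was 0.09 ± 0.47, or 0.30 over the 7 libraries.

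Enzymes that lengthen and desaturate polyunsaturated chains had negative fold changes without passing the test. FADS2, the delta-6 desaturase (chromosome 2, 9629423 to 9735576, minus strand), had 131, 125, 104, 103 and 112 CPM in SWNT-SHP1i and 119, 154, 111, 132 and 158 CPM in SWNT. Although 2 SWNT-SHP1i libraries were below every SWNT library, the other 3 lay within the SWNT range. The log2 fold change was -0.23 ± 0.17, with an unadjusted edgeR p of 0.202. FADS1, the delta-5 desaturase next to it on the other strand, averaged 52.8 ± 19.5 CPM in SWNT-SHP1i and 66.2 ± 10.7 CPM in SWNT, with a log2 fold change of -0.33 ± 0.26 that was -0.14 over the 7 libraries. The pair share 107 exon bases. ELOVL5, an elongase of polyunsaturated chains (chromosome 7, 46860770 to 46932926, minus strand), had 63.9, 65.8, 50.4, 56.2 and 30.4 CPM in SWNT-SHP1i and 62.2, 55.3, 44.7, 57.7 and 63.4 CPM in SWNT, again lowest in the 3 libraries with few detected genes, with a log2 fold change of -0.09 ± 0.22. ELOVL6, the elongase of saturated chains, averaged 17.8 ± 5.997 CPM in SWNT-SHP1i and 18.7 ± 7.401 CPM in SWNT.

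Set side by side, the mean differences between SWNT-SHP1i and SWNT of the sterol enzymes and of the fatty acid enzymes were nearly the same, -0.04 log2 CPM each. The level of each set was taken per library as the mean of its members' log2 CPM after each member was centred on its mean over the 10 libraries. For the sterol enzymes it was -0.18, 0.21, -0.33, 0.11 and 0.09 in SWNT-SHP1i replicates 1, 2, 3, 5 and 6, and -0.12, 0.15, -0.08, -0.01 and 0.16 in SWNT. For the fatty acid enzymes it was -0.29, 0.38, -0.38, 0.05 and 0.15 in SWNT-SHP1i, and 0.16, -0.01, -0.16, 0.13 and -0.03 in SWNT. Both sets were lowest in SWNT-SHP1i replicates 3 and 1 and highest in SWNT-SHP1i replicate 2. The difference of the 2, sterol minus fatty acid, was -0.0018 between the groups, smaller than its SD over libraries of 0.11 in SWNT-SHP1i and 0.20 in SWNT (n = 5 each). The centring fixes the zero of each level, so only differences between libraries or groups can be read from it. No test was made of these summaries, because the genes were listed with earlier results of these data known.

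**Figure D3:**
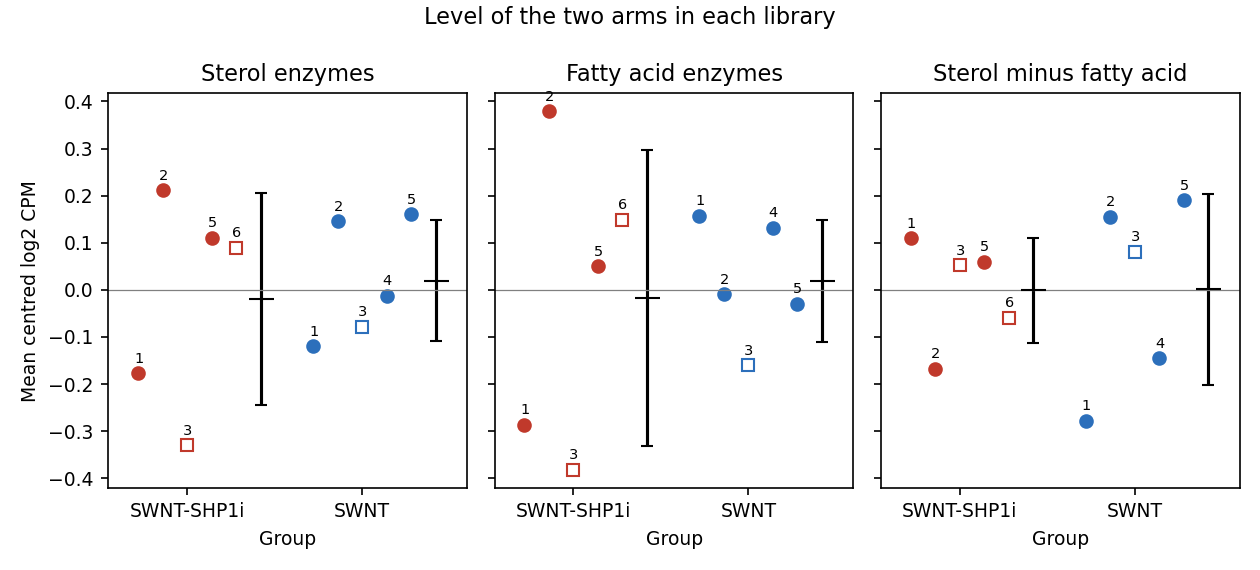
Mean centred log2 CPM of the sterol enzymes (left), the fatty acid enzymes (middle) and their difference (right) in each library, SWNT-SHP1i in red and SWNT in blue, with replicate numbers above the points, group mean ± SD as black bars (n = 5 each) and open squares for the 3 libraries with the fewest genes detected. The group means differ by -0.04 in each of the left 2 panels, and SWNT-SHP1i replicates 1 and 3 are lowest in both.

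Within single libraries the members of both sets spread around their mean level. The sterol enzymes did so less than all genes tested in every library. The fatty acid enzymes did so in every library but SWNT-SHP1i replicate 1, with an SD of 0.61 against 0.57 over all genes tested. The SD over the 19 sterol enzymes of their centred log2 CPM was 1.07 in SWNT-SHP1i replicate 6, 0.62 in SWNT-SHP1i replicate 3 and 0.56 in SWNT replicate 3, against 0.20 to 0.44 in the other 7 libraries. Over the 9 fatty acid enzymes it was 0.61, 0.59 and 0.60 in SWNT-SHP1i replicates 1, 3 and 6 and 0.24 to 0.42 in the other 7 libraries. In SWNT-SHP1i replicate 6, 8 of the 19 reached their highest value over all libraries (PMVK, MVD, IDI1, FDPS, NSDHL, HSD17B7, EBP and DHCR7) and 5 their lowest (HMGCS1, GGPS1, SQLE, CYP51A1 and SC5D). These 13 are 68.4% of the sterol enzymes, and 59.9% of all genes tested had their highest or lowest value there. Of the 9 fatty acid enzymes 2 did so (22.2%), FASN with the highest and ELOVL5 with the lowest value. In SWNT-SHP1i replicate 3, 5 of 9 fatty acid enzymes (55.6%) and 6 of 19 sterol enzymes (31.6%) were at an end, against 38.3% of all genes tested. The sterol shares lay near those of all genes tested, and 9 fatty acid enzymes are few for a share, so no order of the sets can be read from these counts. The SD over all genes tested was 1.47 in SWNT-SHP1i replicate 3, 1.39 in SWNT-SHP1i replicate 6 and 0.89 in SWNT replicate 3, against 0.49 to 0.68 elsewhere.

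**Figure D4:**
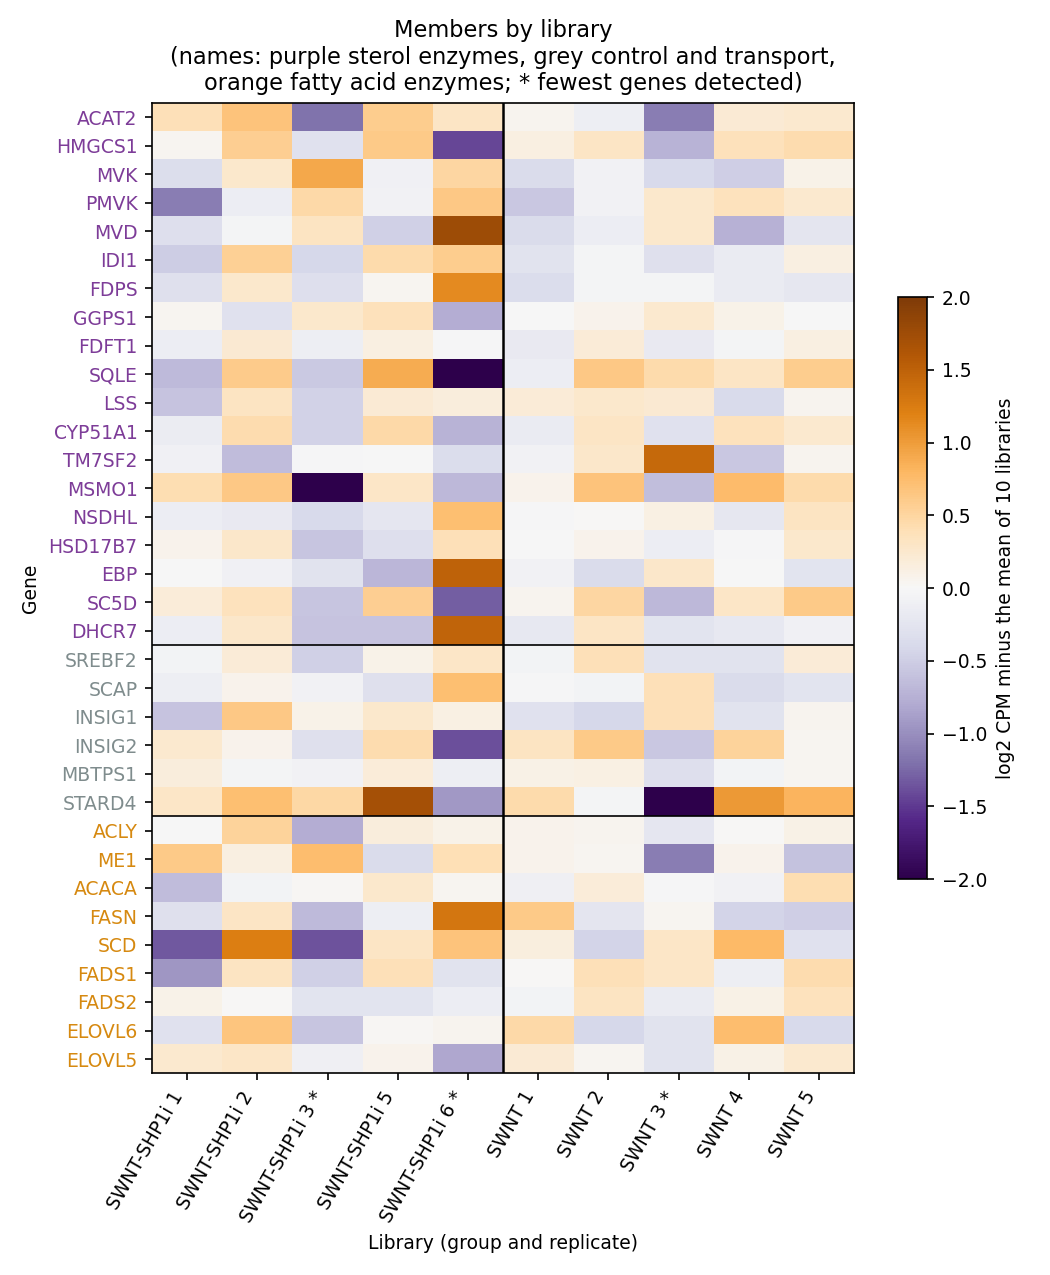
Deviation of each gene (rows, in pathway order) from its mean over the 10 libraries, in log2 CPM (colour scale from -2 to 2, values beyond it shown in the end colours), with SWNT-SHP1i libraries on the left of the black line, SWNT libraries on the right and asterisks on the 3 libraries with the fewest genes detected. In SWNT-SHP1i replicate 6, MVD, FDPS, EBP, DHCR7 and FASN are high while HMGCS1, SQLE, SC5D and INSIG2 are low.

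Part of the members were lower in the 3 libraries with the fewest genes detected than in the other 7, a comparison made after the values were seen. In 7 of 34 members (20.6%) the 3 libraries with the fewest detected genes, 2 SWNT-SHP1i and 1 SWNT, were all below the other 7, against 8.69% of all genes tested. These were HMGCS1, CYP51A1, MSMO1, SC5D, INSIG2, MBTPS1 and ELOVL5. Within the 3 libraries they did not follow the number of genes itself, as only MSMO1 was lowest in SWNT-SHP1i replicate 3, which had the fewest. MSMO1, the sterol C4-methyl oxidase, had 18.9, 22.0, 3.53, 17.4 and 8.82 CPM in SWNT-SHP1i and 14.9, 22.7, 9.15, 24.0 and 19.3 CPM in SWNT, so that the 3 libraries reached at most 9.15 CPM and the other 7 at least 14.9 CPM. Its log2 fold change of -0.35 ± 0.44 was -0.03 over those 7. CYP51A1, the lanosterol demethylase, stood at 13.6 to 18.4 CPM in the 3 and at 20.2 to 31.2 CPM in the 7. For SC5D the ranges were 4.49 to 7.55 CPM and 11.6 to 17.3 CPM, and for MBTPS1, where the gap was small, 153 to 182 CPM and 184 to 216 CPM. MVD was the only member with all 3 above the other 7, a pattern of 5.91% of all genes tested. Over all genes tested the median exon length was 3550 bases. It was 4682 bases in those with the 3 libraries lowest and 2217.5 bases in those with them highest. The 7 members had a median of 2774 bases and all members one of 4334.5 bases. The part of exon length was not tested. Neither the part of library content nor that of animal number range in these values was tested.

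Between genes, levels were compared per exon length, as RPKM (CPM divided by the summed exon length in kilobases) in the mean of all 10 libraries. The median of the fatty acid enzymes stood above that of the sterol enzymes in both groups. The medians over the genes were 12.0 RPKM and 6.69 RPKM in SWNT-SHP1i and 13.3 RPKM and 6.57 RPKM in SWNT. In both groups the sterol median was the value of FDFT1. Like ACAT2 and TM7SF2, FDFT1 shares exon bases with a gene on the other strand, so the levels of these genes are uncertain. The sets overlapped, at 2.82 to 24.5 RPKM for the fatty acid enzymes and 0.499 to 22.7 RPKM for the sterol enzymes over all 10 libraries. MBTPS1 (42.8 RPKM) and SREBF2 (26.7 RPKM) were the highest of the 34, followed by FASN (24.5 RPKM), FDPS (22.7 RPKM), FADS2 (20.1 RPKM) and ELOVL5 (19.8 RPKM). In FASN and FDPS the libraries spread widely, at 27.2 ± 16.5 RPKM in SWNT-SHP1i and 21.8 ± 7.597 RPKM in SWNT for FASN and at 26.1 ± 12.5 and 19.4 ± 1.72 RPKM for FDPS (SD, n = 5 each), so that these neighbours did not differ beyond their spread. MVK (0.499 RPKM) and NSDHL (1.73 RPKM), among the lowest, have exon models of 12559 and 12526 bases, the longest of the members, and STARD4 was the lowest of all (0.309 RPKM).

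**Figure D5:**
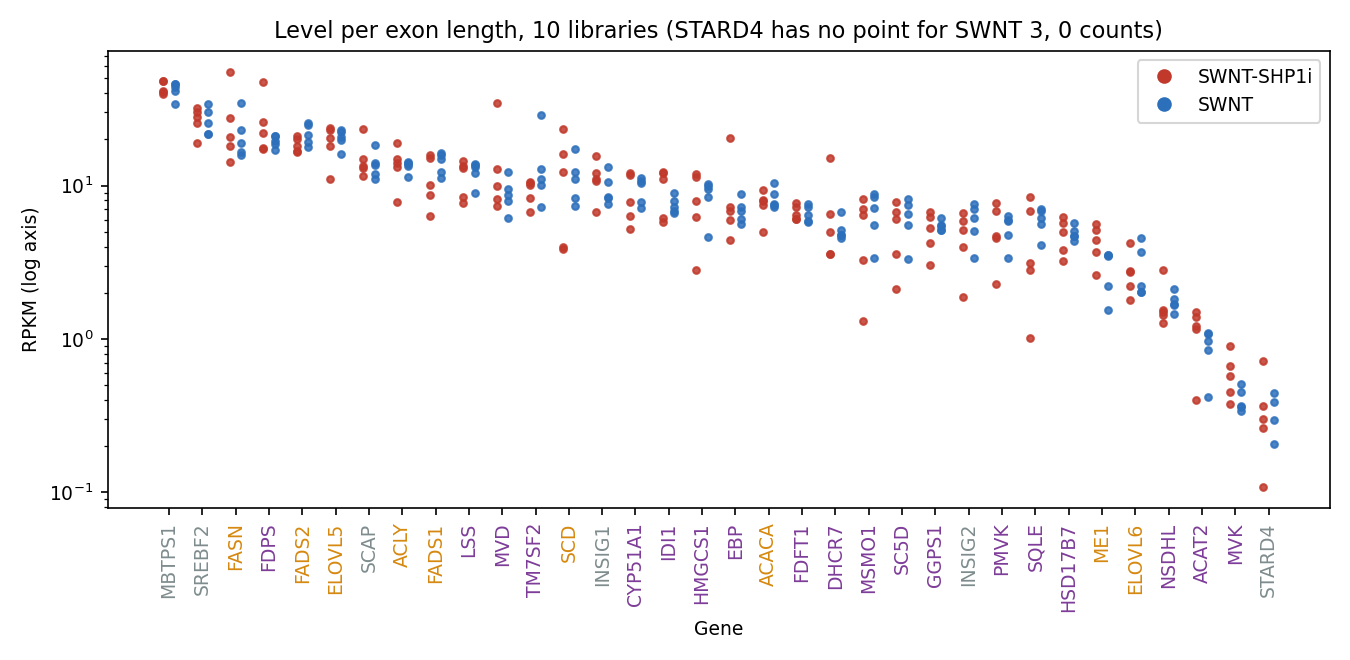
RPKM (log axis) of each gene in the 10 libraries, ordered by the mean, with SWNT-SHP1i libraries in red on the left and SWNT libraries in blue on the right of each gene, and gene names coloured by sterol enzymes (purple), control and transport genes (grey) and fatty acid enzymes (orange). Levels run from 0.309 RPKM for STARD4 to 42.8 RPKM for MBTPS1 in the mean, and the groups overlap in every gene. STARD4 has no point for SWNT replicate 3, which held 0 counts.

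Neighbouring lipid genes outside the 35 were read in the same fit, where 0 passed over all genes tested. Among 16 further genes of lipogenesis, 9 were positive with a median log2 fold change of 0.17. PGD, an enzyme that yields NADPH, reached 332 CPM in SWNT-SHP1i replicate 6, with 53.6 to 80.6 CPM in the other SWNT-SHP1i libraries, against 57.6 to 66.7 CPM in SWNT. Triglyceride synthesis genes had a median of 0.00 (3 of 6 tested positive) and fatty acid oxidation genes one of -0.12 (4 of 11 tested positive), with 0 at an unadjusted p under 0.05 in both. The 11 genes of cholesterol esterification and efflux had a median of 0.80, with 10 positive. Of these, 7 had an unadjusted edgeR p under 0.05, among them the exporter ABCA1 (0.80 ± 0.22) and the lipid carrier APOE (2.33 ± 0.73). Over all genes tested, 3.49% were higher in SWNT-SHP1i at that p. APOE was at 4546 CPM in SWNT-SHP1i replicate 6, against 249.7 to 720 CPM in the other SWNT-SHP1i and 157 to 349 CPM in the SWNT libraries. Whether synthesis and efflux genes differ in their response was not tested.

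Markers of other cell types varied between the same libraries. Summed over 10 adipocyte markers, all detected, levels were 167, 306, 215, 445 and 386 CPM in SWNT-SHP1i and 574, 124, 515, 313 and 114 CPM in SWNT, and 3 of 8 tested markers were positive, with 0 at an unadjusted p under 0.05. Split at these sums after the values were seen, SCD stood at 58.6 to 125 CPM in the 6 libraries with sums of 306 to 574 CPM. In the 4 with sums of 114 to 215 CPM it stood at 20.4 to 43.6 CPM, both groups being present on each side. Within the 6 libraries SCD did not follow the sum. SWNT-SHP1i replicate 2, with the lowest sum of the 6, had the highest SCD value, and SWNT replicate 1, with the highest sum, had the lowest. FASN was at 137 to 458 CPM in the same 6 libraries and at 118 to 157 CPM in the 4, so that its ranges overlapped. In SWNT-SHP1i replicate 6, 246 of the 386 CPM was FABP4, one of several markers named here after their values were seen. Its ADIPOQ (15.8 CPM) and PLIN1 (7.15 CPM) were below those of SWNT-SHP1i replicate 3 (26.9 and 7.28 CPM), a library with a low sum. Its LIPE, CIDEA and CIDEC were above them. The side of replicate 6 in this split therefore depends on the markers summed. Macrophage markers (11 of 12 found) summed to 1353, 1465, 1459, 415 and 2322 CPM in SWNT-SHP1i and to 1208, 401, 439, 657 and 529.7 CPM in SWNT. All 11 were positive and 10 had an unadjusted p under 0.05, and the highest sum was again in replicate 6. Over all genes tested, 3.49% were higher and 1.15% lower in SWNT-SHP1i at that p by edgeR. Schwann cell markers, whose cells make sterol for myelin, summed to 68.0 to 147 CPM in SWNT-SHP1i and to 172 to 220 CPM in SWNT, lowest in replicate 6, with 2 of 9 positive and 2 lower at an unadjusted p under 0.05. For 8 fibroblast markers the sums were 55375 to 81773 CPM in SWNT-SHP1i and 33533 to 66302 CPM in SWNT, with all 8 positive and 2 at an unadjusted p under 0.05. Most of each sum was the collagen genes COL1A1 and COL3A1, named after their values were seen. COL1A1 was at 27546 to 53797 CPM in SWNT-SHP1i and 14157 to 33158 CPM in SWNT. COL3A1 was at 18502 to 30847 CPM and 14146 to 28715 CPM. The sums therefore say little about the other fibroblast markers. The 8 endothelial markers summed to 679.6 to 1926 CPM in SWNT-SHP1i and to 530.2 to 1780 CPM in SWNT, with 6 positive and 1 lower at an unadjusted p under 0.05. Skeletal muscle markers (6 of 8 found) summed to 143, 22.0, 166, 8.24 and 98.3 CPM in SWNT-SHP1i and to 7.67 to 23.9 CPM in SWNT. Nearly all of it was CKM, the 1 gene that passed the filter on low counts, while the fibre gene ACTA1, named after its values were seen, reached at most 3.41 CPM in SWNT-SHP1i. The part of these cell types in the values of the members was not tested.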

How the data were processed

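RNA from pig carotid artery was sequenced after poly-T bead purification, 1 library per animal. The authors deposited raw read counts per gene, not normalized, with gene positions, names and a summed exon length. Trim Galore, STAR, DESeq2 and the build Sscrofa11.1 are named per the submitters' processing notes, without versions. How reads were assigned to genes, with or without strand and on which annotation release, is not stated in those notes. The 35 members, the marker and pathway lists and the tests were chosen with earlier results of these data known.

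Genes were matched by the deposited name, which 17532 genes carry, and 223 more were named from a table of gene IDs. Genes passing edgeR's filterByExpr with a minimum count of 10 were kept, 15930 in all, holding at least 99.89% of each library's counts. The 2 groups were fitted in R 4.3.3 with edgeR 4.0.16 (TMM scaling, robust quasi-likelihood F test), and p-values were adjusted by Benjamini-Hochberg over all genes tested. CPM and RPKM use TMM-scaled library sizes, and log2 CPM a prior count of 2. Intervals are 95% and use the fit's moderated degrees of freedom. Libraries of a group differ by more than sampling noise, the lowest median chi-square of a pair within a group being 6.623 (SWNT replicates 2 and 5) where noise gives 0.455. DESeq2 1.42.0 and limma 3.58.1 (voom with quality weights), other scalings and filters, animal number range as covariate and left-out libraries were alternatives. The pipeline was tested on simulated data.

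Values per library are given for the gene of smallest p in each role and for SREBF2, HMGCS1, SQLE, FASN and SCD, and at most 2 genes of smallest p are named from each other list. MVD, ACAT2, FDFT1, DHCR7, EBP, SC5D, INSIG1 and MSMO1 were given per library after their values were seen. Floors and intervals from counts cover counting error only. A result for 1 gene of the lipogenesis list is not reported here.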

Additional observations from a re-analysis of the deposited data

Results flagged for a closer look

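Of 74 checks of 5 libraries each, 6 found 1 library standing apart from the other 4 of its group, by a gap to its nearest neighbour above 0.71 of the group's whole range (Dixon's limit for 5 values), where chance flags about 1 in 20. All 6 concerned 1 of the 3 libraries with the fewest genes detected. Among these, SWNT-SHP1i replicate 3 and SWNT replicate 3 are also the only libraries from animals not numbered B9. ACAT2 stood apart in both groups, at 0.84 log2 CPM in SWNT-SHP1i replicate 3, with the others at 2.35 to 2.72, and at 0.91 log2 CPM in SWNT replicate 3, with the others at 1.91 to 2.28. NSDHL was high in SWNT-SHP1i replicate 6, at 5.13 log2 CPM, with the others at 4.002 to 4.27. In SWNT replicate 3, HMGCS1 was low at 4.64 log2 CPM (others 5.50 to 5.80) and ACLY at 5.64 log2 CPM (others 5.88 to 5.97). STARD4, with 0 counts in SWNT replicate 3, was there at -4.21 on the log2 CPM scale, a value set by the prior count, with the others at 0.23 to 1.30. Neither the part of library content nor that of animal number range in these values was tested.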

How the results depend on the processing

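No gene of the 34, and no gene of all tested, was called at an adjusted p under 0.05 by edgeR under any scaling, filter, covariate or left-out library tried, by DESeq2 or by limma-voom, or in the main fit at an adjusted p under 0.1. Over all genes the smallest adjusted p was 0.061 with DESeq2 and 0.098 with limma-voom, both under 0.1. Over the members it was 0.77 with DESeq2 and 0.60 with limma-voom. Leaving out each library in turn, the median log2 fold change ranged from -0.06 to 0.05 over the sterol enzymes and from -0.17 to 0.05 over the fatty acid enzymes, and the difference in level between sterol and fatty acid enzymes from -0.07 to 0.05. The fatty acid median was 0.15 with limma-voom, the sterol median 0.0016 with RLE scaling, and the difference 0.13 with the median over genes in place of the mean. Among 714 fold changes of single genes under 21 alternatives, 81 had the opposite sign to the reported value, in 24 genes, and the cause was not tested.

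By setting, the opposite-signed log2 fold changes were as follows. With DESeq2 PMVK had 0.023 and HSD17B7 0.00083, and with RLE scaling they had 0.024 and 0.0016. With a filter of 1 CPM in 5 libraries PMVK had 0.0075. SREBF2 had -0.0024 with upper-quartile scaling and -0.0018 with no filter. With animal number range as covariate SREBF2 had -0.00052 and SCD -0.023. With limma-voom HMGCS1 had 0.062, CYP51A1 0.013, HSD17B7 0.0096, SREBF2 -0.038, ELOVL6 0.20 and ELOVL5 0.078. With only animals numbered B9, LSS had 0.014, NSDHL 0.064 and HSD17B7 0.045. Without SWNT-SHP1i replicates 3 and 6, HMGCS1 had 0.29, MVD -0.055, SQLE 0.027, CYP51A1 0.16, MSMO1 0.12, EBP -0.16, SC5D 0.16, DHCR7 -0.032, SCAP -0.060, INSIG2 0.013, ELOVL6 0.084 and ELOVL5 0.14. With only the 7 libraries with most genes detected, an alternative chosen after seeing the data, HMGCS1 had 0.15, GGPS1 0.050, SQLE 0.056, CYP51A1 0.096, EBP -0.042, SC5D 0.020, DHCR7 -0.055, ELOVL6 0.017 and ELOVL5 0.078. Leaving out 1 library at a time, 18 genes took both signs, with log2 fold changes of HMGCS1 -0.27 to 0.13, PMVK -0.20 to 0.17, GGPS1 -0.22 to 0.035, FDFT1 -0.029 to 0.080, CYP51A1 -0.28 to 0.0067, NSDHL -0.29 to 0.048, HSD17B7 -0.14 to 0.083, EBP -0.18 to 0.55, DHCR7 -0.15 to 0.54, and of SREBF2 -0.061 to 0.12, SCAP -0.059 to 0.27, MBTPS1 -0.023 to 0.078, STARD4 -0.044 to 0.65, ACLY -0.097 to 0.20, FASN -0.11 to 0.55, SCD -0.31 to 0.31, ELOVL6 -0.29 to 0.14 and ELOVL5 -0.17 to 0.060.

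Unadjusted p-values under 0.05 appeared without SWNT-SHP1i replicate 1 for MVK (4.24% of all genes tested there), without SWNT-SHP1i replicate 5 for MVD and ME1 (9.79%), and without SWNT replicate 4 for TM7SF2 (3.55%), in 0 cases with an adjusted p under 0.05. No paired analysis was possible because the replicate numbers were given in the order of the samples and pair no animals. Animals not numbered B9 were 1 in each group (SWNT-SHP1i replicate 3 and SWNT replicate 3), too few for a value of their own. With 5 libraries a group, the members' unadjusted 95% intervals had half-widths of 0.35 to 1.99 on the log2 scale, which limits the changes these data can show.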
